A study of Mus musculus with 8 samples.

Results

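The 7 genes described here are 3 neuronal calcium-binding proteins (Pvalb, Calb1 and Calb2), the transcription factors Npas1 and Npas3, the secreted glycoprotein Reln and the neuregulin receptor Erbb4. They were chosen by name, as genes tied to GABA interneurons, and 16593 genes in all had a tested probe. The array carried 13 probes for the 7 genes, and 12 of them were bright enough to be tested. Parvalbumin (Pvalb), calbindin (Calb1) and calretinin (Calb2) bind calcium through EF-hand loops, buffer it in the cell body and axon, and are the classical labels of separate interneuron classes in the cortex. Npas1 and Npas3 belong to the bHLH-PAS family of transcription factors, which bind DNA as dimers with a partner such as Arnt, and both act in embryonic interneuron progenitors of the mouse. Reelin is released by many interneurons and signals through Vldlr, Lrp8 and the adaptor Dab1. Erbb4 is the receptor tyrosine kinase through which neuregulins reach interneurons. In the hypothalamus these genes mark no single cell type. Calretinin and calbindin label neurons of several nuclei there, and parvalbumin labels a small group of cells in the lateral hypothalamus.

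The samples were hypothalami of adult male C3H/Hen mice, 4 from the maternal separation group (labelled Stress, MS below) and 4 from the control group (labelled Ctrl). MS pups were separated from dams that themselves went through unpredictable stress, from postnatal day 2 to 14, while control pups did not, and both groups were weaned on day 21 and food deprived before the tissue was taken. C3H/Hen is an inbred strain, no mouse carried a transgene, and the mice came from the cohort used for operant tests of palatable food. Each mouse gave 1 single-color array, labelled from 200 ng of RNA, so that n = 4 for each group. The mice were MS 5.3, 7.2, 7.1 and 7.6 and control 8.2, 8.4, 6.2 and 8.5, and values below follow that order. The labels do not say which mice were littermates. MS 5.3 and 7.2 and control 8.2 and 8.4 lay in row 1 of the slide, and the other mice in row 2.

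Every value is the log2 of a probe's processed signal minus the 75th percentile of its array. A value of 0 is therefore as bright as that percentile, and 1 unit is a doubling. Each probe binds with its own strength, so a level is compared between mice and never between probes. In whole tissue, fewer cells of a type and less RNA per cell cannot be told apart.

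The arrays differed in brightness, with a 75th percentile of 566 in MS 7.6 and at least 853 in the 7 other mice, and 61.2 to 69.5% and 62.8 to 71.1% of probes well above background. All 14 markers of the hypothalamus were tested, and Otp was the one not well above background on all 8 arrays (on 4 of them). Avp lay at 6.17 to 6.91 in MS and 6.36 to 6.70 in control mice. Hcrt, the orexin precursor of the lateral hypothalamus, read 3.30, 3.37, 5.76 and 5.44 in MS mice, against 6.36, 6.48, 5.45 and 5.33 in control mice. The mean deviation of the list was -0.21 and -0.20 in MS 5.3 and 7.2, the 2 mice lowest in Hcrt. Hcrt is itself in the list and makes up much of these values, and the mean without it was not computed. Control 8.5 stood apart in several lists that bear on the genes below. Among 16589 genes with a value in all 8 mice, 27% had their lowest value in control 8.5, whereas 8 of the 10 neuronal markers and 7 of the 10 oligodendrocyte markers did. Control 6.2 stood apart in pituitary markers, whose summed signal was 19.7 to 29.6 times the 75th percentile in MS mice and 17.8 to 261 times in control mice. Pvalb, Npas1 and the dim Erbb4 probe, whose differences moved most without control 8.5, are given with and without it.

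Several probe sites can be read directly. Those shown are open in at least 1 reading frame with no stop codon, and they are the sites of the Calb2, Reln and dimmer Npas1 values. They are 60-base probes in the sense direction, from the deposited array files, 5′ to 3′.
Calb2 A_52_P556433: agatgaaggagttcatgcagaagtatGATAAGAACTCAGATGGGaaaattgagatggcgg
Npas1 A_55_P2150966: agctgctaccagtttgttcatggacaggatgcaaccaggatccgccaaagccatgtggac
Reln A_66_P108810: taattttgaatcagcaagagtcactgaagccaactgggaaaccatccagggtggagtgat
The capitals in the Calb2 probe, bases 27 to 44, mark the codons of an EF-hand calcium loop (aspartate, any residue, aspartate or asparagine, any residue, aspartate, glycine). The same codon pattern was found on the printed strand of 20 of 55681 probes, or 0.0359%, which held no other probe of the 7 genes, and on either strand of 0.0485%. In mm9, the build of the array files, the Calb2 site lies at chr8:112678555-112678614 on the minus strand. The Npas1 site is chr7:17046680-17046739 (minus), and the brighter Npas1 probe A_55_P2031721 starts 5581 bases away at chr7:17041099-17041158. The Reln site is chr5:21404915-21404974 (minus).

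No gene of the 7 passed the test of MS against control mice. With limma and Benjamini-Hochberg adjustment over 37313 probes, 0 of the 12 tested probes passed 0.05, against a background of 0% of all probes, and the smallest adjusted p of any probe on the array was 0.128. At an unadjusted p of 0.05, 0 of 12 passed, against 3.27% of all probes. In 0 of 12 did the MS and control values fail to overlap, against 2.04% of all probes. The difference was positive at 4 probes and negative at 8, with a median of -0.14, and over all probes the median was 0.01 and 53% were positive. Adjusted p-values of the 12 probes ran from 0.976 to 0.99 (limma). The smallest exact two-sided permutation p was 0.114, where 4 mice against 4 can reach 0.0286.

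**Figure D1:**
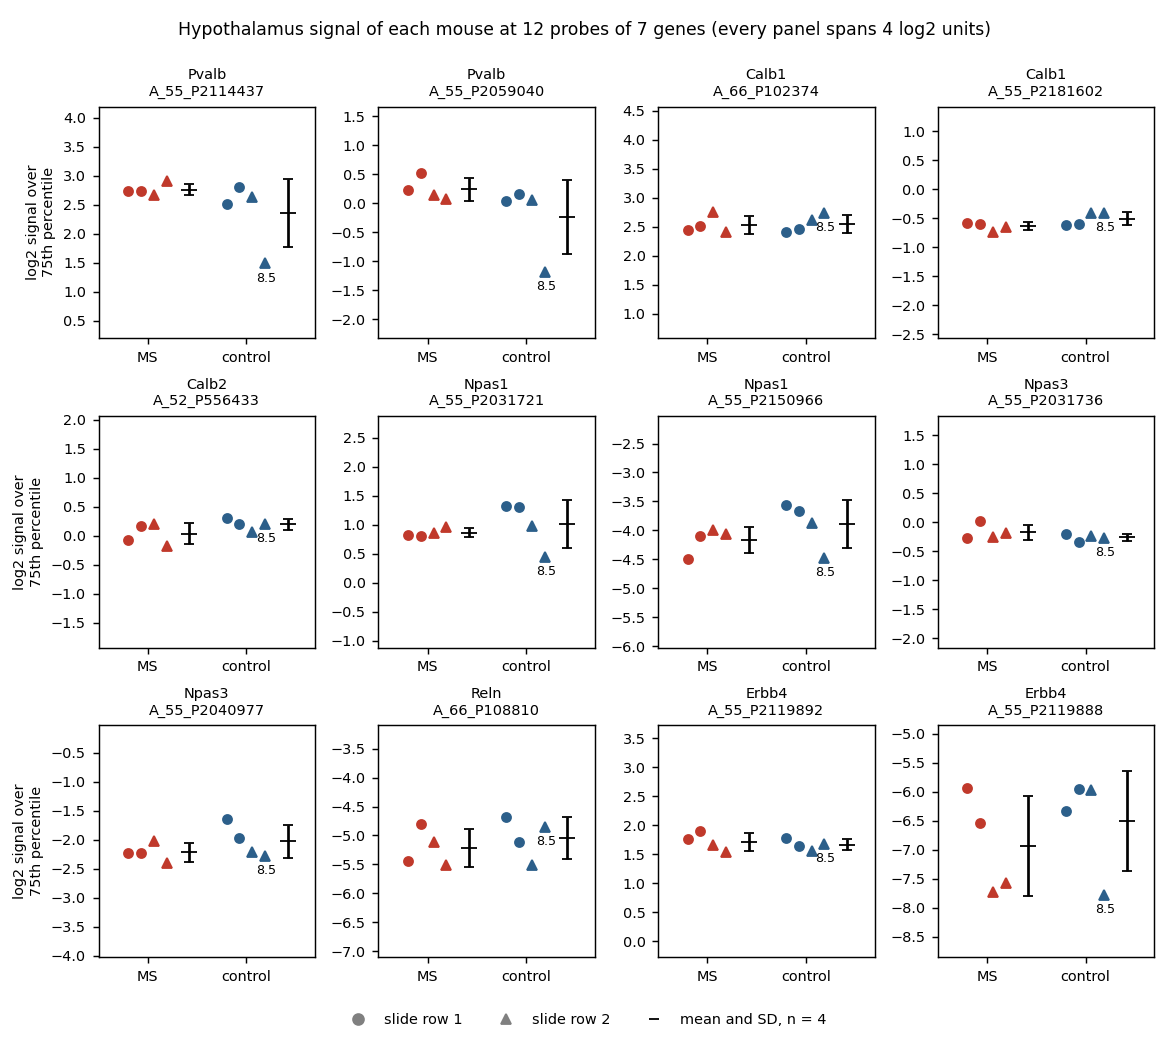
Log2 signal over the 75th percentile of the array in each mouse (y axis) for the 12 tested probes, MS in red on the left and control in blue on the right of each panel, with circles for slide row 1, triangles for row 2 and black bars for the mean and SD of 4 mice. Control 8.5 lies at 1.49 and -1.19 on the 2 Pvalb probes, below the 7 other mice, and the groups overlap in every panel.

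Pvalb was bright at the probe A_55_P2114437, which lies at chr15:78021951-78022010 (minus). It read 2.73, 2.75, 2.67 and 2.90 in MS mice, against 2.52, 2.80, 2.63 and 1.49 in control mice. The 4 MS values lay among or just above those of 3 control mice, and control 8.5 was alone at the bottom, 1.03 log2 units (2.04-fold) under the next mouse. Means were 2.76 ± 0.10 in MS and 2.36 ± 0.59 in control mice (SD, n = 4 each). The difference was 0.40 with a standard error of 0.26 and a 95% interval of -0.20 to 1.003 (exact permutation p = 0.171, limma adjusted p = 0.976).

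The second Pvalb probe, A_55_P2059040, starts 402 bases from the first. It read 0.22, 0.52, 0.14 and 0.07 in MS mice, against 0.04, 0.15, 0.06 and -1.19 in control mice. Control 8.5 was again the lowest, 1.23 log2 units (2.35-fold) under the next mouse, a gap wider than that of 99.7% of genes. Over the 8 mice the 2 probes followed each other with r = 0.937 and a rank correlation of 0.69. The difference was 0.47 (SE 0.29, 95% interval -0.19 to 1.14, exact permutation p = 0.114, limma adjusted p = 0.976). Without control 8.5 the differences of the 2 probes were 0.11 (-0.10 to 0.32) and 0.15 (-0.11 to 0.42). By slide row they were 0.08 and 0.28 in row 1, and 0.73 and 0.67 in row 2, which holds control 8.5.

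Most of the listed genes of fast-spiking neurons, in which parvalbumin is best known, had their lowest value in the same mouse. The list held 19 genes, among them the Kv3 potassium channels, the sodium channel subunit Scn4b and the perineuronal net genes Acan, Hapln1 and Hapln4, and all were measured. Of these, 12 had their lowest value in control 8.5 (63.2%, against 27% of all genes). The share was 80% in the neuronal and 70% in the oligodendrocyte markers, so that it was not particular to fast-spiking genes. Scn4b read -0.58, -0.47, -0.65 and -0.30 in MS mice, against -0.42, 0.08, -0.49 and -1.49 in control mice. Kcnab3, a potassium channel β subunit, read 0.21, 0.34, 0.16 and -0.03 in MS mice, against 0.10, 0.20, 0.07 and -0.97 in control mice. Scn4b and Kcnab3 lay farthest down in control 8.5 of all genes of the list, and both count in its mean. Other members were not low there. Syt2 had its highest value of the 8 mice in control 8.5 (-3.98), and Acan and Hapln4 had their lowest in MS 7.2. Averaged over the list, control 8.5 deviated by -0.25 from the mean of the 8 mice, and MS mice by 0.00 to 0.03. The neuronal markers deviated by -0.17 and the oligodendrocyte markers by -0.31 in that mouse, and the markers of cortex, hippocampus and amygdala by -0.56. The part of these lists in the Pvalb difference was not tested.

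**Figure D2:**
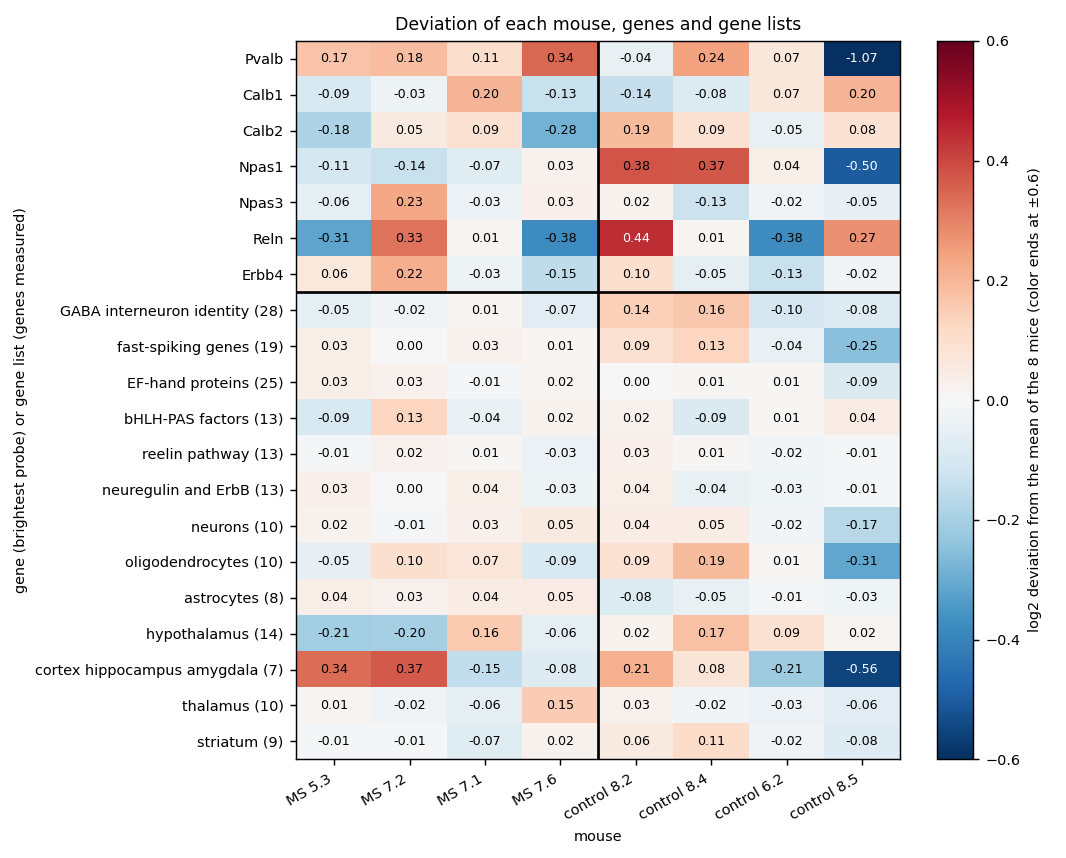
Log2 deviation of each mouse (x axis, MS left of the line and control right of it) from the mean of the 8 mice, for the brightest probe of the 7 genes (upper rows) and for means over gene lists (lower rows, with the number of genes measured). Pvalb at -1.07 and Npas1 at -0.50 are low in control 8.5 together with the lists of fast-spiking genes, neurons, oligodendrocytes and cortex, hippocampus and amygdala.

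As a group the fast-spiking genes showed 0 higher and 0 lower at an adjusted p of 0.05 (limma). Their median difference was 0.04, with 13 positive and 6 negative. Over 16593 genes the median was 0.02 and 9604 differences were positive. Kcnab3 had the most positive difference (0.32, 95% interval -0.25 to 0.89), and it was 0.05 without control 8.5. Syt2, a synaptotagmin of fast-releasing synapses, had the most negative (-0.22, -0.53 to 0.09). Hapln1, a link protein of the perineuronal net, had the smallest p and a difference of 0.23 (-0.01 to 0.46).

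Calb1 was nearly level between the groups at the brighter of its 2 probes. At A_66_P102374 (chr4:15835078-15835137, plus strand) it read 2.45, 2.51, 2.75 and 2.41 in MS mice, against 2.40, 2.46, 2.61 and 2.74 in control mice. Both groups spanned nearly the same range, and the whole set of 8 mice lay within 1.27-fold. The difference was -0.03 (SE 0.10, 95% interval -0.26 to 0.21), which corresponds to 0.835 to 1.16-fold. The other probe, A_55_P2181602, read -0.58, -0.59, -0.73 and -0.65 in MS mice, against -0.62, -0.59, -0.41 and -0.41 in control mice. The 2 control mice of row 2 were the highest, and the difference was 0.02 in row 1 and -0.28 in row 2. Over all mice it was -0.13 (SE 0.07, -0.30 to 0.04, exact permutation p = 0.171, limma adjusted p = 0.976). The 2 Calb1 probes followed each other only weakly over the 8 mice (r = 0.273).

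Calb2 read -0.07, 0.17, 0.21 and -0.17 in MS mice, against 0.30, 0.21, 0.07 and 0.20 in control mice, at the EF-hand site printed above. MS 5.3 and 7.6 were the 2 lowest mice, and MS 7.2 and 7.1 lay among the control mice. The difference was -0.16 (SE 0.10, 95% interval -0.39 to 0.07, exact permutation p = 0.2, limma adjusted p = 0.976). It was -0.21 in row 1 and -0.12 in row 2, and it stayed between -0.22 and -0.09 with each mouse left out in turn.

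The other EF-hand proteins showed small differences. The list of 26 held calmodulins, S100 proteins, neuronal calcium sensors and the Kv4 channel partners Kcnip1 to Kcnip4, and 25 were measured. No gene passed in either direction, 20 differences were positive and 5 negative, and the median was 0.04. Over all genes, 9604 of 16593 differences were positive and the median was 0.02. Of the 25 genes, 11 had their lowest value in control 8.5 (44%, against 27% of all genes). Kcnip4 had the smallest p and read 3.55, 3.62, 3.60 and 3.55 in MS mice, against 3.46, 3.40, 3.51 and 3.43 in control mice. Its groups did not overlap, as at 2.04% of all probes, with a difference of 0.13 (SE 0.05, 95% interval 0.01 to 0.25, limma adjusted p = 0.976). Efhd1, a mitochondrial EF-hand protein, had the most positive difference (0.16, -0.15 to 0.46) and Ocm (oncomodulin), a parvalbumin relative, the most negative (-0.17, -0.58 to 0.23).

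Npas1 divided the control mice. At A_55_P2031721 it read 0.83, 0.80, 0.86 and 0.96 in MS mice, against 1.32, 1.31, 0.97 and 0.44 in control mice. Control 8.2 and 8.4 were above every MS mouse and control 8.5 below every one, so that the MS values lay inside the control range. Means were 0.86 ± 0.07 in MS and 1.01 ± 0.41 in control mice (SD, n = 4 each). At the site printed above, A_55_P2150966, it read -4.49, -4.10, -3.996 and -4.07 in MS mice, against -3.56, -3.66, -3.88 and -4.48 in control mice. The same 2 control mice were the highest, and the 2 probes followed each other with r = 0.891 and a rank correlation of 0.905.

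The Npas1 differences were -0.14 (SE 0.18, 95% interval -0.57 to 0.28, exact permutation p = 0.486) and -0.27 (SE 0.21, -0.74 to 0.20, exact permutation p = 0.257), with a limma adjusted p of 0.976 at both probes. Their direction differed between the slide rows, of which row 1 holds control 8.2 and 8.4 and row 2 holds control 8.5. Row and mouse cannot be told apart here. In row 1, MS minus control was -0.50 and -0.69 at the 2 probes, and in row 2 it was 0.21 and 0.15. Without control 8.5 the differences grew to -0.34 (-0.57 to -0.10) and -0.46 (-0.79 to -0.14), and all 4 MS mice were then below all 3 control mice at both probes. Without that mouse the groups failed to overlap at 2 of the 12 probes, both of Npas1, against 4.13% of all probes. Without control 8.2, one of the 2 highest mice, the differences shrank to -0.04 and -0.16, and the range over the 8 mice left out in turn was -0.34 to -0.04 and -0.46 to -0.16. Neither passed without control 8.5 either (limma unadjusted p = 0.0116 and 0.0113, adjusted p = 0.999 at both). In that fit 2 of the 12 probes had an unadjusted limma p under 0.05, against 3.14% of all probes. Both are the probes of Npas1, which followed each other over the mice, so they are not 2 separate results. Control 8.5 was left out after its values had been seen, and leaving out a low control mouse widens a negative difference. Leaving out this mouse, low for Pvalb as well as Npas1, raised the control mean of both genes. Both differences therefore went down, which brought Pvalb towards 0 and Npas1 away from it.

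**Figure D3:**
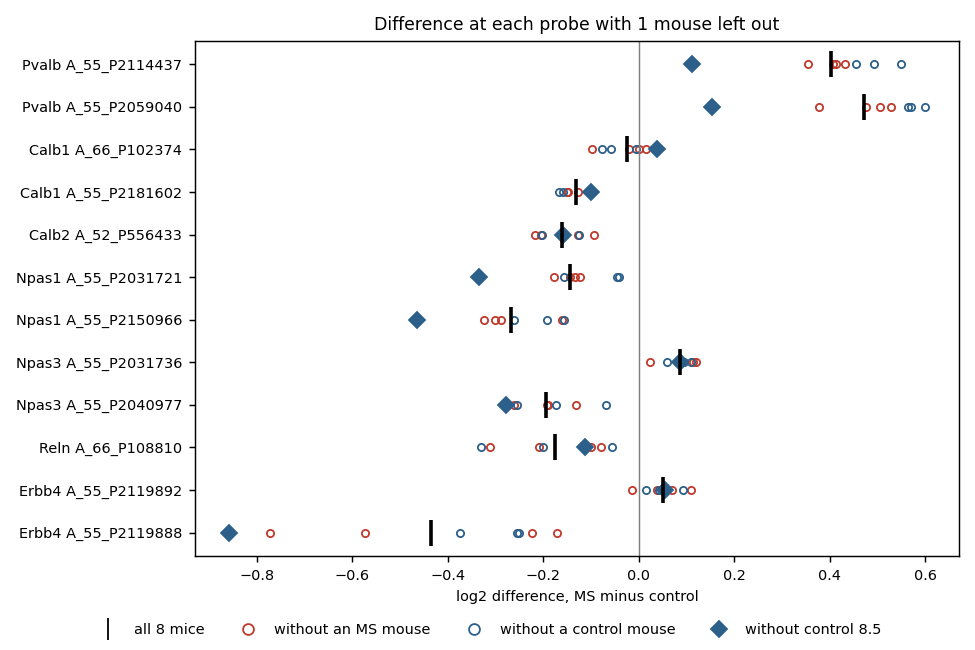
MS minus control difference (x axis, log2) at each tested probe with all 8 mice (black line) and with 1 mouse left out, open red circles for an MS mouse, open blue circles for a control mouse and the filled diamond for control 8.5. Without control 8.5 the first Pvalb probe lies at 0.11 and the first Npas1 probe at -0.34.

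Control 8.2 and 8.4 were also the highest mice in the list of GABA interneuron genes. This list held 30 genes, from Gad1 and Gad2, the enzymes of GABA synthesis, to the transcription factors Lhx6, Sox6 and Maf and the peptides Sst, Vip, Npy and Crh, and 28 were measured. Its mean deviation was 0.14 and 0.16 in control 8.2 and 8.4, -0.10 to -0.08 in the other control mice and -0.07 to 0.01 in MS mice. Vip, the peptide of the suprachiasmatic nucleus and of an interneuron class, read -2.96, -1.45, -1.62 and -2.79 in MS mice, against 0.42, 0.81, -3.29 and -3.84 in control mice. The 2 control mice with the most Npas1 thus had the most Vip, and the control mice covered a wider range than the MS mice. Vip is part of the list mean, and its values make up a large share of the deviations in control 8.2 and 8.4. The mean without Vip was not computed. Of the 28 genes, 5 had their 2 highest values in those 2 mice (17.9%, against 4.59% of all genes). The share was 26.3% in the fast-spiking list and 20% in each of the thalamus and oligodendrocyte lists, so that it was not particular to GABA interneuron genes. The fast-spiking list also had its highest mean deviations in control 8.2 and 8.4 (0.09 and 0.13). The list was read in this way after the Npas1 values had been seen, and its part in the Npas1 difference was not tested.

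In that list 0 genes passed in either direction (limma adjusted p of 0.05), 11 differences were positive and 17 negative, and the median was -0.05. Vip had the most negative difference (-0.73, 95% interval -3.24 to 1.78). Npy had the most positive, 0.20 (0.03 to 0.36), and Sst the smallest p. Sst, somatostatin, read 5.24, 5.03, 5.13 and 5.10 in MS mice, against 5.25, 5.33, 5.40 and 5.34 in control mice. Every MS value was below every control value, and the difference was -0.20 (SE 0.07, -0.35 to -0.06, limma adjusted p = 0.976). The groups failed to overlap, in either direction, at 2.04% of all probes. Gad1 differed by -0.03 (-0.17 to 0.12) and Gad2 by -0.11 (-0.30 to 0.08).

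Npas3 gave opposite signs at its 2 tested probes. At A_55_P2031736 (chr12:55173076-55173135, plus strand) it read -0.27, 0.02, -0.25 and -0.19 in MS mice, against -0.20, -0.34, -0.24 and -0.27 in control mice. MS 7.2 was the highest and the other 7 mice lay close together. The difference was 0.09 (SE 0.08, 95% interval -0.09 to 0.26, exact permutation p = 0.343, limma adjusted p = 0.976). At A_55_P2040977, which starts at base 55172619 of the same strand, it read -2.23, -2.23, -2.02 and -2.40 in MS mice, against -1.65, -1.97, -2.21 and -2.28 in control mice. Control 8.2 and 8.4 were the highest here, as for Npas1, and the difference was -0.19 (SE 0.15, -0.53 to 0.14), with -0.42 in row 1 and 0.03 in row 2. Without MS 7.2 the first difference was 0.02, and without control 8.2 the second was -0.07. The 2 probes did not follow each other over the 8 mice (r = -0.176). Another probe, A_51_P432937, was well above background in 1 MS and 1 control mouse and was not tested.

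Among the other bHLH-PAS factors, 13 of 14 were measured and 0 passed in either direction (limma). The median difference was 0.04, with 9 positive and 4 negative. Ahrr, the repressor of the aryl hydrocarbon receptor, had the most negative difference and the smallest p. It read -4.86, -4.13, -4.33 and -4.21 in MS mice, against -3.83, -4.37, -3.96 and -3.42 in control mice, a difference of -0.49 (SE 0.22, 95% interval -1.01 to 0.02, limma adjusted p = 0.976). Ahr, the receptor that Ahrr represses, had the most positive difference, 0.20 (-0.01 to 0.42).

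Reln was near the lower end of what the array measured, with 3 MS and 4 control mice well above background. It read -5.45, -4.81, -5.12 and -5.51 in MS mice, against -4.69, -5.12, -5.51 and -4.86 in control mice. Each group held both high and low mice, and MS 7.6 was the one not above background. The difference was -0.17 (SE 0.21, 95% interval -0.66 to 0.31, exact permutation p = 0.571, limma adjusted p = 0.976), and it ran from -0.33 to -0.06 with each mouse left out in turn.

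The receptors and adaptors of reelin showed small differences. All 13 genes of the pathway list, from Vldlr, Lrp8 and Dab1 to the kinases Fyn, Src and Cdk5, were measured, and 0 passed in either direction (limma). Their differences lay between -0.08 (Src) and 0.08 (Rapgef1, an exchange factor downstream of Dab1, at 0.01 without control 8.5), with a median of 0.01, 7 positive and 6 negative. The smallest p belonged to Cdk5r1, the activator of Cdk5, at a difference of 0.05 (95% interval -0.07 to 0.18).

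Erbb4 was bright and level at A_55_P2119892 (chr1:68078805-68078864, minus strand). It read 1.754, 1.91, 1.66 and 1.54 in MS mice, against 1.79, 1.64, 1.56 and 1.67 in control mice. MS mice held both the highest and the lowest value, and the difference was 0.05 (SE 0.09, 95% interval -0.16 to 0.26, exact permutation p = 0.657, limma adjusted p = 0.976). The other probe, A_55_P2119888, was well above background in 1 MS and 3 control mice. It read -5.93, -6.53, -7.73 and -7.58 in MS mice, against -6.33, -5.95, -5.97 and -7.78 in control mice. The values of the mice at background are not measured levels, and the difference of -0.43 had an interval of -1.64 to 0.77. Control 8.5 was the 1 control mouse at background. Without it the difference was -0.86 (-1.89 to 0.17), which sets 3 control mice above background against MS mice of which 1 was.

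Of the 15 genes in the neuregulin and ErbB list, which holds the neuregulins, other ErbB ligands, the partner receptors and the sheddases, 13 were measured and 0 passed in either direction (limma). The median difference was 0.03, with 7 positive and 6 negative. Btc (betacellulin), a ligand of Erbb4, had the most positive difference (0.21, 95% interval -0.26 to 0.67). Its probe was dim and well above background on 6 of the 8 arrays. Erbb2, the partner receptor, had the most negative difference (-0.11, -0.32 to 0.10). Adam17, which sheds neuregulin and the receptor, had the smallest p, with a difference of 0.10 (-0.07 to 0.27).

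**Figure D4:**
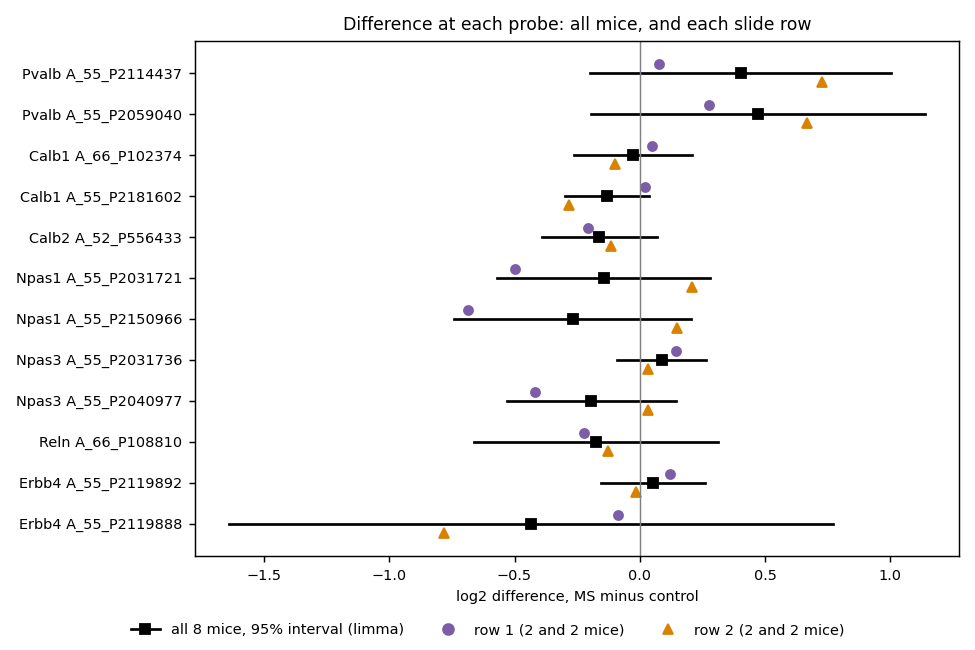
MS minus control difference (x axis, log2) at each of the 12 tested probes, with the limma 95% interval over 8 mice (black squares and lines), in slide row 1 alone (purple circles) and in row 2 alone (orange triangles). Every interval crosses 0, and the 2 Npas1 probes lie at -0.50 and -0.69 in row 1 and at 0.21 and 0.15 in row 2.

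The precision differed between the 12 probes. The median standard error was 0.166, against 0.0947 over all tested probes. At 9 of the 12 probes the 95% interval excluded a 2-fold difference either way, and at 7 it excluded a 1.5-fold one, against 94.8% and 84.1% of all probes. The 3 whose interval reached 2-fold were both Pvalb probes and the dim Erbb4 probe.

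The patterns over the 8 mice differed from gene to gene. On the brightest probe of each, Calb2 and Reln rose and fell together most closely (r = 0.834, n = 8), followed by Reln and Erbb4 (0.689). Pvalb and Npas1 had r = 0.637, and Calb1 ran against both (-0.609 with Pvalb and -0.657 with Npas1). These correlations describe 8 arrays of 1 slide, and control 8.5 is in all of them. The closest pairs were picked from all pairs of these genes, and the Reln probe lay near background. MS 7.6, the dimmest array, was lowest or next to lowest for Calb1, Calb2, Reln and Erbb4, highest for Pvalb and next to highest for Npas3. The part of array brightness in these correlations was not tested.

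Among 16588 other genes, the pattern most like that of Pvalb was that of Ntan1, an amidase of the N-end rule pathway (r = 0.991, rank correlation 0.786), then Ndufa1, a subunit of respiratory complex I (0.989), and Pde5a, a cGMP phosphodiesterase (0.986). Without control 8.5 and MS 7.6, the 2 mice farthest from the median, these fell to 0.791, 0.797 and 0.707. For Npas1 they were Frmd4b (r = 0.997), the phosphatase Ptpn21 (0.958) and the potassium channel Kcna6 (0.956), and these kept 0.993, 0.955 and 0.906 without control 8.5 and 8.2. The closest to Calb1 were 2310005E17Rik (0.982), the laminin chain Lamb3 (0.947) and the exocyst subunit Exoc6 (0.945). The closest to Calb2 were the ceramide carrier Cert1 (0.969), the autophagy protein Wipi1 (0.956) and 4933406I18Rik (0.951). Npas3 was most like the transporter Abca5 (0.978), Brk1 (0.947) and Klhl25 (0.933). Reln was most like the protocadherin Pcdhb9 (0.982), Mier3 (0.96) and Dcun1d3 (0.956), and Erbb4 like Mindy2 (0.985), Rwdd4a (0.982) and Rbmx2 (0.965). They were picked as the highest of all genes searched over 8 arrays, and are given as a description.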

How the data were processed

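Hypothalamus RNA of 8 mice was measured on single-color Agilent arrays of 1 slide. The authors scanned the arrays with Agilent Feature Extraction 10.10.1.1, and the deposited intensity values are its processed, mean and background signals per spot, not normalized between arrays. The array design in the file headers, built on mm9, differs from the number in the study's methods. The authors' table of log2 values, for which the sources used here name no normalization, served as an alternative. Of 59305 spots other than controls, outlier spots were left out and repeats averaged to 55681 probes. The log2 processed signal minus the 75th percentile of the array was tested with limma 3.58.1 in R 4.3.3 (lmFit and eBayes, MS minus control, no covariate), over the 37313 probes (67%) that 4 or more of the 8 arrays measured well above background, with Benjamini-Hochberg adjustment at 0.05, and tested on simulated data first. Exact permutation tests ran over all 70 assignments of the mice. All p-values are two-sided. The precision is limited by the number of arrays. Alternatives were other normalizations, background correction, filters, blocks, weights, each slide row and each mouse left out.

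The genes and the gene lists were chosen with earlier results of these data known. Named genes were all probes of the 7 genes, the 3 genes most like each (Pearson, brightest tested probe per gene), and per list the most positive, most negative and smallest-p gene. Scn4b, Gad1, Gad2, Avp, Hcrt and Otp were chosen after their values were seen.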

Additional observations from a re-analysis of the deposited data

Results flagged for a closer look

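In 26 groups of 4 mice at the probes of the 7 genes, 1 mouse stood far from its group. This was control 8.5 at the Pvalb probe A_55_P2059040, whose gap to the next mouse was 0.921 of the control range, past Dixon's 95% critical value for 4 samples. At the other Pvalb probe the share was 0.783 in the same mouse. Among 76 groups of the other named genes, 5 were past the critical value. Control 8.5 was lowest for Kcnab3 (0.888) and Ntan1 (0.874). MS 7.1 was highest for 2310005E17Rik (0.835), control 6.2 lowest for 4933406I18Rik (0.834) and control 8.2 highest for Klhl25 (0.831). Chance gives about 1 such group in 20, and Ntan1, 2310005E17Rik, 4933406I18Rik and Klhl25 were picked for their pattern over the same mice.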

How the results depend on the processing

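None of the 12 probes passed under any of 22 settings. With the first part of the mouse number (before the dot) as random block (estimated correlation -0.199) 1 probe of the array passed, and in row 2 alone 1 did. Probes whose groups do not overlap numbered 478 after normexp and 648 after quantile normalization, against 761. Normexp turned Reln to 0.039, Erbb4 A_55_P2119888 to 0.034, Src to 0.017 and Ocm to 0.019. Array weights turned Calb1 A_66_P102374 to 0.055. Row 1 alone gave 0.049 there, 0.021 at Calb1 A_55_P2181602 and 0.040 for Ocm. Row 2 alone gave 0.208 and 0.149 for Npas1, 0.032 for Npas3 A_55_P2040977, -0.017 for Erbb4 A_55_P2119892, 1.365 for Vip, 0.033 for Syt2 and -0.074 for Btc. With 1 mouse left out, Calb1 A_66_P102374 ran from -0.098 to 0.038, Erbb4 A_55_P2119892 from -0.013 to 0.110 and Vip from -1.515 to 0.034. The cause was not tested. The differences of both Pvalb probes, Calb2 and Npas3 A_55_P2031736 kept their sign in every setting run, though not their size: with 1 mouse left out the Pvalb differences ran from 0.111 to 0.550 and 0.154 to 0.599, and Npas3 A_55_P2031736 from 0.024 to 0.120. No paired analysis was possible because the mouse numbers of the MS and control groups are not shared. Neighboring arrays as a block, which share a slide position and not a mouse number, gave 0 passing probes (limma, smallest adjusted p 0.962). With 4 mice a group, an exact p cannot go below 0.0286, and the dim Reln, Erbb4 and Btc probes lie near background.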
